A study of Mus musculus with 3 samples.

Results

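The regions described here are the peaks of tagged Foxd3 that appear in the list made with the anti-Flag antibody and overlap no peak of the list made with the anti-HA antibody. They were chosen by position alone: a Flag peak was kept when no HA peak shared 1 bp or more with it. There were 2072 such Flag-only peaks among 4569 Flag peaks, out of 7975 rows in both lists, and 2497 Flag peaks were shared with HA. The Flag-only peaks were 45.3% of the Flag list (95% Wilson interval 43.9 to 46.8), and 910 HA peaks (26.7%) had no Flag partner. Since the overlap with HA defined the members, these shares describe the choice and are not a result.

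Both precipitations came from 1 mouse embryonic stem cell line, FH-Foxd3, made by transducing LF2 cells with an FH-Foxd3 pTrip lentivirus and selecting with neomycin. The cells made an added Foxd3 carrying Flag and HA tags at close to the endogenous level, per the series' design text, and were cultured without feeders in medium with FBS and LIF. The anti-HA and the anti-Flag group each consist of 1 library, and the input of total genomic DNA was not analysed here. Both antibodies were thus directed at the same fusion protein in the same cells, and no precipitation from cells lacking the tags was analysed here. With 1 library per antibody there is no replicate, so no p-value is given. Intervals cover counting error only, and read depth is unknown.

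Foxd3 is a forkhead transcription factor, a family whose winged-helix domain contacts DNA. It is known for its roles in embryonic stem cells and in the neural crest. Flag and HA are short peptide tags that are recognised by separate antibodies, so a site of the fusion protein can be recovered through either tag. DNA that only 1 antibody recovers for another reason would be listed for that antibody alone. So would a site that passes the peak threshold in 1 library and misses it in the other. DNA that both antibodies recover for another reason would be listed as shared. The lists hold positions (build mm9) and no peak height, so these cases cannot be told apart here. No sequence or gene is given for the peaks, since no mm9 genome or annotation was used here.

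The Flag-only peaks were not spread evenly along the Flag list. They made up its opening, became scarce, and then increased towards the end. A run of 27 Flag-only lines opened the list, and 48 of the first 50 and 90 of the first 100 lines had no HA partner (90%, 82.6 to 94.5). In lines 101 to 200 the count fell to 33, and in lines 301 to 400 it reached 14, the lowest of the 45 full blocks of 100 lines. From there it climbed unevenly to 72 in lines 4401 to 4500. The HA list had no such opening: 1 of its first 100 lines was HA-only, and its count then increased to 71 in lines 3301 to 3400. The deposited lists do not state what their order means.

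**Figure D1:**
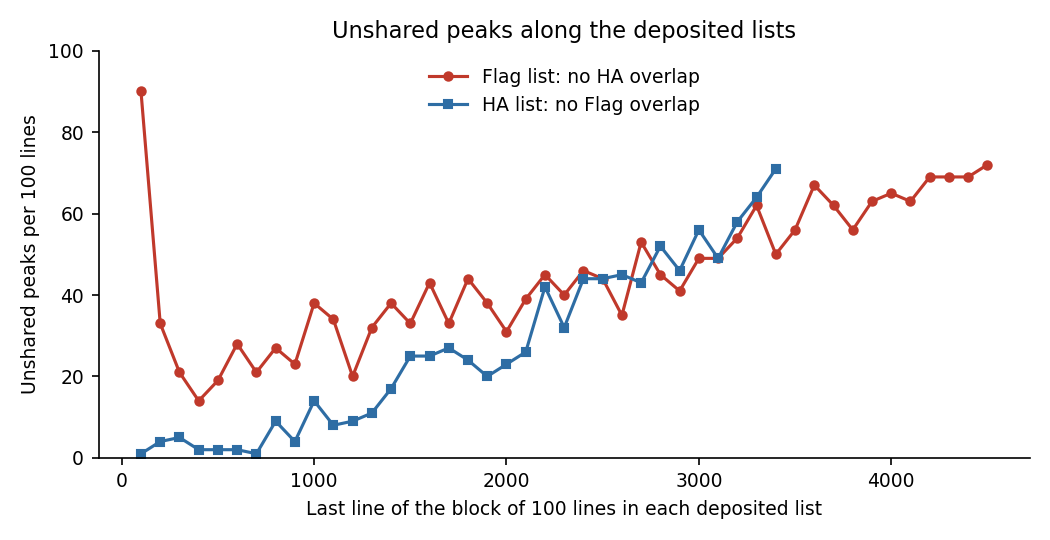
Number of unshared peaks (vertical axis) in each full block of 100 lines, plotted at the block's last line in the deposited list (horizontal axis), for the Flag list (red circles) and the HA list (blue squares). The Flag list starts at 90, drops to 14 in lines 301 to 400 and ends at 72, while the HA list starts at 1 and ends at 71.

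Line order was related between the antibodies at the sites they share. Across the 2497 shared Flag peaks, the Flag line and the line of the HA partner had a Spearman rho of 0.75 and a Pearson r of 0.70. The points are sites of 2 libraries from the same cells, so the values are a description. The HA peak on line 1, on chromosome X at 100667468 to 100668290, met the Flag peak on line 46, and 44 of the 45 Flag lines before it were Flag-only. The partners of the first 10 HA lines stood on Flag lines 46, 69, 79, 71, 120, 89, 105, 126, 59 and 86. The leading HA sites therefore followed a run of Flag peaks with no HA counterpart. Of the 10 shared peaks within the first 100 Flag lines, 7 had a partner among the first 10 HA lines. The 99 shared peaks of the first 100 HA lines had Flag partners between lines 46 and 568, with a median at line 175.

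The opening 10 lines were scattered over 8 chromosomes. Line 1 was an 832 bp peak on chromosome 4 (139814668 to 139815499), 256 kb from the nearest HA peak. Line 2 was a 725 bp peak on chromosome 7 (6362653 to 6363377), with an HA peak 152 kb away. Line 3 was a 778 bp peak on chromosome 9 (21754553 to 21755330), at a distance of 181 kb. None of these 3 had an HA peak within 100 kb. Line 4, on chromosome 8 (14072328 to 14073173), measured 846 bp and lay 56.9 kb from HA, the shortest distance of the 10. Lines 5 and 7 were neighbours on chromosome 14, at 64300363 to 64300789 (427 bp) and 64331675 to 64332644 (970 bp), with 30.9 kb between them. Line 6, on chromosome 19 (4988795 to 4989599), measured 805 bp and lay 91.6 kb from HA. The remaining lines lay more than 100 kb from HA peaks. Line 8, on chromosome 2 (32873388 to 32874063), measured 676 bp and was 418 kb from HA. Line 9, on chromosome 18, measured 633 bp and was 265 kb away. Line 10, on chromosome 2 (33945956 to 33946771), measured 816 bp and was 140 kb away.

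Close pairs recurred among the 90 leading Flag-only peaks. Besides lines 5 and 7, lines 11 and 21 lay 121 kb apart on chromosome 15 (72398921 to 72399452 and 72520077 to 72520766). Lines 18 and 20 lay 219 kb apart on chromosome 13 (54851859 to 54852836 and 55072163 to 55072798). Lines 34 and 63 lay 203 kb apart on chromosome 11 (55420621 to 55421680 and 55624272 to 55624773), and lines 9 and 72 lay 167 kb apart on chromosome 18. These 5 pairs are the ones under 250 kb, a limit set after the values were seen. How often unrelated sites would pair like this was not tested.

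The leading Flag-only peaks were wider than later ones and narrower than the shared peaks listed beside them. In the first 100 lines the 90 Flag-only peaks measured 308 to 1241 bp, with a median of 594 bp (interval of the median 534 to 636). The 10 shared peaks of those lines measured 559 to 2138 bp, with a median of 857 bp (662 to 1366). The 1982 Flag-only peaks of later lines had a median of 399 bp (390 to 409) and the 2497 shared peaks one of 548 bp (540 to 560). The leading group thus resembled shared peaks more than later Flag-only peaks in its median width, although all 4 ranges overlapped. The widest leading members were line 13 (1241 bp, chromosome 4, 150978395 to 150979635), line 34 (1060 bp) and line 18 (978 bp). The narrowest was line 68 on chromosome 15 (76352577 to 76352884, 308 bp).

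**Figure D2:**
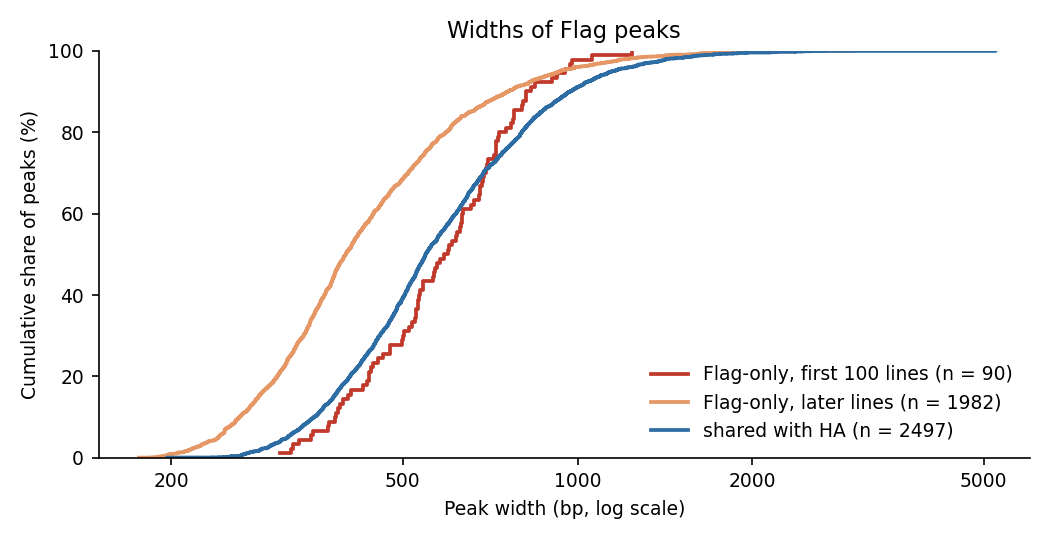
Cumulative share of peaks in percent (vertical axis) against peak width in bp on a log scale (horizontal axis) for Flag-only peaks of the first 100 lines (red), later Flag-only peaks (orange) and Flag peaks shared with HA (blue). The red and blue curves lie close together, with medians of 594 and 548 bp, and the orange curve lies to the left, with a median of 399 bp.

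After the opening, width and line parted for Flag-only peaks. In lines 101 to 457 their median width was 445 bp, against 687 bp for shared peaks. In lines 458 to 914 the medians were 419 and 628 bp, and in lines 915 to 2285 they were 382 and 543 bp. In lines 2286 to 4569 they were 404 and 506 bp. The shared peaks thus narrowed over all 4 ranges and the Flag-only peaks over the first 3. Over the 1982 later Flag-only peaks, line and width had a Spearman rho of -0.00 and a Pearson r of 0.02, and over the shared peaks -0.26 and -0.20. These are descriptions across sites of 1 library.

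Narrow Flag peaks were mostly Flag-only. With the list split into 10 classes of width, in the narrowest class (176 to 300 bp) 375 of 457 were Flag-only, or 82.1% (78.3 to 85.3). The share was 39.2% (34.8 to 43.7) from 438 to 490 bp and 26.9% (23.1 to 31.2) in the widest class, from 901 bp up. A wide peak can meet an HA peak more easily than a narrow one, so width is not independent of how the members were chosen. In the first 100 lines the shares fell with width as well, from a higher level. All 39 of their peaks in the width classes from 300 to 544 bp were Flag-only. In the next 4 classes the counts were 10 of 11, 21 of 23, 13 of 16 and, in the widest, 7 of 11. Later lines of the widest class held 116 Flag-only peaks among 446, or 26.0% (22.2 to 30.3).

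The widest Flag-only peaks all stood deep in the list, as most Flag-only peaks did. The widest was a 2985 bp peak on line 2014 (chromosome 17, 29627970 to 29630954), 45.6 kb from an HA peak. The next stood on line 3112 (chromosome 8, 119196313 to 119198638, 2326 bp), 342 kb from HA. Of all 2072 Flag-only peaks, 166 stood in the first 457 lines, and the median line was 2873.5. None of the 10 widest fell in those first lines, and their lines ran from 1743 to 4065. Of these 10, 3 nearly touched an HA peak. A gap of 272 bp separated the chromosome 6 peak at 136439169 to 136441448 (2280 bp wide) from HA. On chromosome 11 the gaps were 213 bp for the peak at 62323754 to 62325850 (2097 bp wide) and 344 bp for the one at 3095417 to 3097186 (1770 bp wide). Another pair lay somewhat farther off: 1407 bp for the chromosome 2 peak at 20593192 to 20595257 (2066 bp wide), and 3593 bp for the chromosome 6 peak at 122656953 to 122658655 (1703 bp wide). The other 3 were well apart from HA. They were at 76483937 to 76485790 of chromosome 14 (1854 bp wide, 79.1 kb away), 81352288 to 81354091 of chromosome 15 (1804 bp wide, 165 kb away) and 118743535 to 118745319 of chromosome 4 (1785 bp wide, 44.1 kb away). The 5 narrowest Flag-only peaks, from 176 to 189 bp, lay 63.4 kb or more from HA. The narrowest of all was on chromosome 11 (30649564 to 30649739).

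Most Flag-only peaks lay over 100 kb from any HA site. The distance to the nearest HA peak ran from 22 bp to 4.62 Mb, with a median of 155294 bp. Shared Flag peaks had a median of 122955 bp to the nearest HA peak that they did not overlap, so long distances were common to both classes. HA peaks lay within 1 kb of 48 members (2.32%, 1.75 to 3.06), within 10 kb of 168 (8.11%, 7.01 to 9.36) and within 100 kb of 817 (39.4%, 37.3 to 41.6). For shared Flag peaks, the nearest HA peak other than the overlapping one was within 10 kb in 344 cases (13.8%, upper bound 15.2) and within 100 kb in 1153 (46.2%, 44.2 to 48.1). Flag-only peaks thus had a close HA neighbour less often than shared peaks had a further one, and the intervals at 100 kb did not overlap. No test of this difference was made, because distance to HA is the measure that chose the members.

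The leading members seldom had an HA peak close by. Of the 90 in the first 100 lines, 1 had an HA peak within 10 kb and 22 within 100 kb (24.4%, 16.7 to 34.2). None had one within 5 kb. A count of 0 among 90 allows a share of up to 3.33% if taken as 3 counts of 90, while the Wilson upper bound is 4.09%. The 1 exception was line 33, on chromosome 4 (130671087 to 130671749), 9815 bp from HA. Of the 1982 later members, 167 had an HA peak within 10 kb (8.43%, 7.28 to 9.73) and 795 within 100 kb (40.1%, 38.0 to 42.3). The share within 10 kb was 2.63% (0.725 to 9.10) in lines 101 to 457, 6.03% (2.95 to 11.9) in lines 458 to 914, 6.28% (4.46 to 8.77) in lines 915 to 2285 and 9.80% (8.30 to 11.5) in lines 2286 to 4569. The share was thus higher in later ranges, although the intervals of adjacent ranges overlapped. Within 100 kb the order held too, with 27.6, 36.2, 37.9 and 42.1% in the same ranges. Within 1 Mb it did not: 94.4% (87.6 to 97.6) of the leading members and 92.8% (91.6 to 93.9) of the later ones had an HA peak. The median distance was 245172.5 bp (151496 to 302686) for the leading members and 153565 bp (141317 to 167882) for the later ones. In the same ranges of later lines it was 237867.5, 155190, 168296.5 and 141626 bp.

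**Figure D3:**
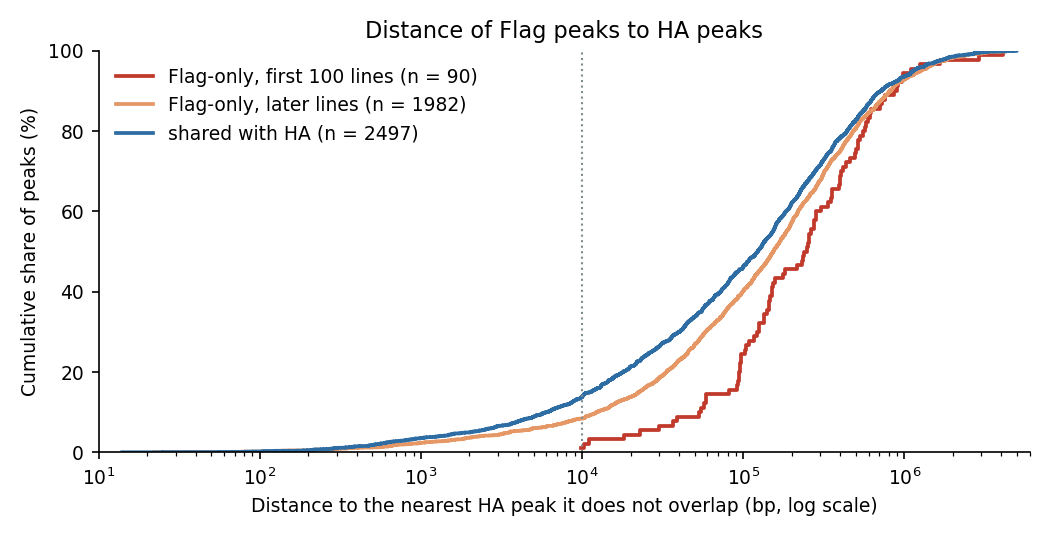
Cumulative share of Flag peaks in percent (vertical axis) against the distance in bp, on a log scale, to the nearest HA peak that they do not overlap (horizontal axis; dotted line at 10 kb). Red marks Flag-only peaks of the first 100 lines, orange later Flag-only peaks and blue Flag peaks shared with HA; at 10 kb the curves stand at 1.11%, 8.43% and 13.8%.

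The members close to an HA peak mostly flanked a site that both antibodies had listed. For 126 of the 168 within 10 kb the nearest HA peak was itself shared with another Flag peak (75%, 67.9 to 80.9). For the other 42 it was an HA-only peak, so that 2 unshared peaks lay side by side. Over all HA peaks the shared share was 73.3% (71.8 to 74.7), so the share among close neighbours was near that of the list. The close members were wide for Flag-only peaks, with a median of 540 bp (499 to 663) against 396 bp (389 to 407) for the 1904 beyond 10 kb. They also stood later in the list, at a median line of 3182.5 against 2823.5. Among the 90 leading members the nearest HA peak was HA-only for 39, and for later members this held for 558 of 1982. The shared nearest neighbours were thus 56.7% (46.4 to 66.4) and 71.8% (69.8 to 73.8).

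At the 1 bp threshold itself the lists were nearly empty. The Flag-only peaks closest to HA were a 408 bp peak on chromosome 17 (31943491 to 31943898) with a gap of 22 bp, a 739 bp peak on chromosome 2 (160341201 to 160341939) with 65 bp, and a 453 bp peak on chromosome 14 (75766592 to 75767044) with 67 bp. A 225 bp peak on chromosome 11 (97873114 to 97873338) followed at 77 bp and a 482 bp peak on chromosome 18 at 113 bp. On the other side, the shared Flag peaks with the smallest overlap had 77 bp in common with HA on chromosome 3 (101994367 to 101995024) and 178 bp on chromosome 17 (35640589 to 35641764). On chromosome 19 the overlap was 125 bp at 11373915 to 11374524 and 195 bp at 12238784 to 12238980, and on chromosome 13 it was 193 bp at 98014785 to 98015147. The second chromosome 19 peak was only 197 bp wide, so HA covered nearly all of it. In all, 25 members lay within 500 bp of an HA peak. The most remote members were on chromosome 12 (93278993 to 93279256, 4.62 Mb from HA; 92922032 to 92922435, 4.26 Mb), chromosome 1 (108118462 to 108119034, 4.30 Mb), chromosome 16 (52858783 to 52859177, 4.25 Mb) and chromosome 7 (10910860 to 10911249, 4.07 Mb). The last of these was line 90 of the list.

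Flag-only peaks were less grouped with each other than shared ones were. Linking peaks under 12500 bp apart put 137 Flag-only peaks (6.61%, 5.62 to 7.76) into 67 groups, of which 64 were pairs and 3 held 3 peaks. The same linking put 321 shared peaks (12.9%, 11.6 to 14.2) into 148 groups, 21 of them with 3 or 4 peaks. The intervals did not overlap. The shared peaks are also more numerous, at 2497 against 2072, and what this adds to the difference was not tested. Counting any Flag peak, 11.6% (10.3 to 13.0) of Flag-only and 15.7% (14.4 to 17.2) of shared peaks had a neighbour within 10 kb. Within 100 kb the shares were 51.2% (49.0 to 53.3) and 53.5% (51.6 to 55.5), with overlapping intervals. A trio on chromosome 12 (88324403 to 88335565) held lines 483, 735 and 1550, all 398 to 417 bp wide and 50.1 to 60.8 kb from HA. A trio on chromosome 17 (31943491 to 31948595) held lines 2907, 2935 and 3077, and its members lay 22, 4768 and 1554 bp from 1 HA peak. The third, on chromosome 18, spanned 14.6 kb, with lines 530, 2155 and 3234 at 78.2 to 92.4 kb from HA. The trios thus held both remote sites and flanks of an HA site. Of the 64 pairs, the earliest in the list was that of line 1 with line 905, at 139805240 to 139805618 on chromosome 4. The next was that of lines 9 and 2831 on chromosome 18, spanning 9.80 kb.

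Flag-only peaks varied more between chromosomes than shared peaks. Their density, over the span up to the largest listed peak end, was 0.792 peaks per Mb overall and ran from 0.293 (95% Poisson interval 0.216 to 0.389) on X to 1.25 (1.06 to 1.46) on chromosome 11, a 4.25-fold range. Shared Flag peaks had 0.954 per Mb overall and a 1.94-fold range. Chromosome 8 came next to chromosome 11 with 1.15 Flag-only peaks per Mb (0.975 to 1.35), followed by chromosome 5 with 1.04 (0.885 to 1.22), and these intervals overlapped. On X the 48 Flag-only peaks stood beside 126 shared ones at 0.77 per Mb (0.642 to 0.917), so shared peaks were far less reduced there. Chromosome 3 was the next lowest with 0.495 (0.391 to 0.618), against 0.876 shared peaks per Mb (0.736 to 1.03). Without X, the Flag-only densities thus ran from 0.495 to 1.25 and the shared ones from 0.702 to 1.36, so X widened the Flag-only range. Chromosome 10 had 0.708 (0.571 to 0.869) against 1.31 (1.12 to 1.52). Flag-only peaks were the more numerous class on chromosomes 5, 7 and 15, with 158, 139 and 94 against 131, 111 and 84. The Poisson intervals of the 2 classes overlapped on each of these 3. Across the 20 chromosomes the 2 densities had a Spearman rho of 0.48 and a Pearson r of 0.50. They come from the same library.

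**Figure D4:**
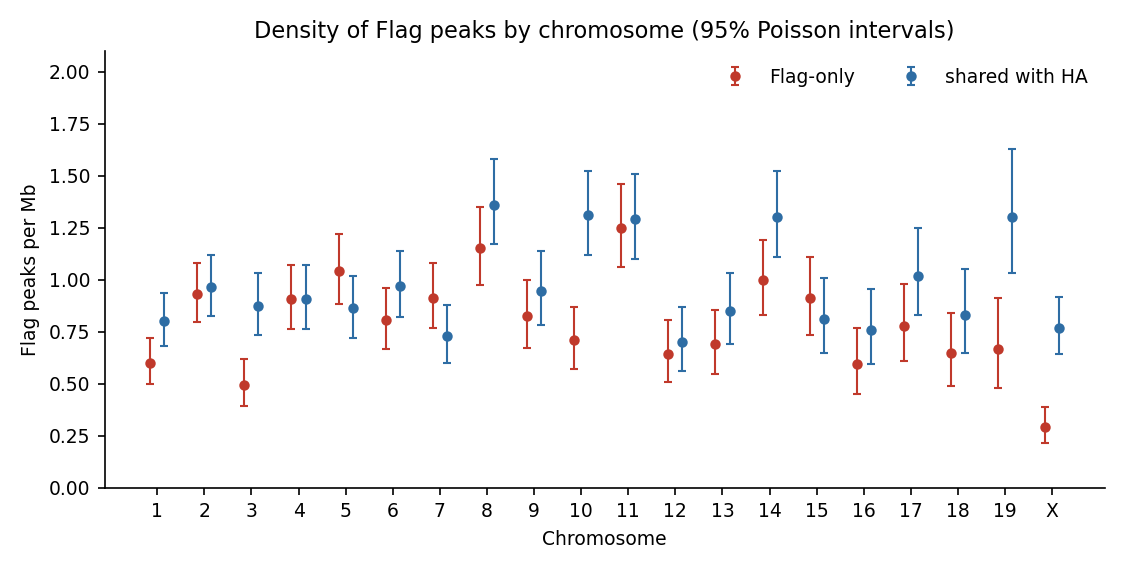
Flag peaks per Mb (vertical axis) on each chromosome (horizontal axis) for Flag-only peaks (red) and peaks shared with HA (blue), with 95% Poisson intervals as bars. The lowest red point is X at 0.293 and the highest is chromosome 11 at 1.25, while the blue points span a 1.94-fold range.

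The leading members were unevenly placed too. Chromosome 4 held 12 of the 90, chromosome 7 held 11 and chromosome 2 held 9, while chromosomes 3 and 10 held none and chromosomes 1 and X held 1 each. Of the 4569 Flag peaks, chromosomes 4 and 7 held 282 and 250, and chromosome 2 held 344, the most of any chromosome. Chromosomes 3, 10, 1 and X held 216, 262, 275 and 174. Whether the leading members depart from these numbers was not tested. Chromosomes 3, 10 and X were also among those with the lowest Flag-only shares over the whole list, at 36.1% (30.0 to 42.7), 35.1% (29.6 to 41.1) and 27.6% (21.5 to 34.7). Chromosome 19 had 33.9% (26.0 to 42.8). Without the first 100 lines the share was 27.5% on X and 32.2% on chromosome 19.

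On chromosome 4, 11 of its 12 leading members lay between 126850608 and 155234040, a stretch of 28.4 Mb defined by those members after they were seen. The stretch held 68 Flag-only and 36 shared Flag peaks, or 2.40 and 1.27 per Mb. The other 127 Mb of the chromosome held 73 and 105, or 0.575 and 0.828 per Mb. Both classes were denser in the stretch, and the Flag-only share was 65.4% (55.8 to 73.8) there against 41.0% (34.0 to 48.4) elsewhere on the chromosome. The members that bound the stretch are counted in these values. Without the first 100 lines the stretch held 57 Flag-only peaks of 93 (61.3%, 51.1 to 70.6; 2.01 per Mb), and the rest of the chromosome 72 of 177 (40.7%, 33.7 to 48.0; 0.568 per Mb).

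In 10 Mb bins, a coarse scale at which most bins held both classes, the counts of Flag-only and shared peaks were related. At closer range, 6.42% of Flag-only peaks had a shared Flag peak within 10 kb and 31.1% within 100 kb. Over 272 bins the counts had a Spearman rho of 0.61 and a Pearson r of 0.59, with medians of 6 Flag-only and 8 shared peaks. Flag-only peaks were absent from 6 bins with shared peaks, and shared peaks from 4 bins with Flag-only peaks. The fullest bin for Flag-only peaks was 130 to 140 Mb of chromosome 4, with 28 beside 20 shared. The surplus over shared peaks was greatest at 70 to 80 Mb of chromosome 15, with 27 beside 10, and at 120 to 130 Mb of chromosome 4, with 24 beside 7. At 80 to 90 Mb chromosome 11 had 26 beside 12, and chromosome 15 had 25 beside 11. In all, 79 bins had more Flag-only than shared peaks. The 90 leading members fell in 65 bins, of which the bins of chromosome 4 from 130 to 140 Mb and from 150 to 160 Mb and the chromosome 15 bin from 70 to 80 Mb held 4 each.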

How the data were processed

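Chromatin immunoprecipitation sequencing of tagged Foxd3 was deposited as 1 peak list per antibody, with no header. Each of the authors' deposited lists gives chromosome, start and end in base pairs (unit: other, genomic position) and no height, fold, p-value or count. Per the submitters' processing notes, positions refer to mm9. No source used here names the aligner, the peak caller or its threshold. A threshold set per library decides which weak sites are listed. The libraries were size-selected on a gel and amplified by PCR, per the labels' protocols.

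Starts were converted to 1-based positions. Flag peaks without an HA peak overlapping by 1 bp were kept, and their number was equal to that from bedtools 2.31.1. Distances are edge to edge. Line numbers count from 1, and line ranges end at line 100 and after 10, 20, 50 and 100% of the lines. Shares have 95% Wilson intervals, densities exact Poisson intervals and medians exact order-statistic intervals. No test was run, since 1 library per antibody gives no replicate. The distance code was tested on simulated data. The tools were matplotlib 3.10.9, pandas 2.3.3, scipy 1.17.1, numpy 2.4.6 and Python 3.11.15.

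The regions named are the first 10 lines, the 10 widest and 5 narrowest members, the 5 on each side of the overlap threshold, the 5 most remote and the 5 fullest groups, with ties between groups taken by earliest line. Other named regions (leading pairs, widest and narrowest leading members, bins and the chromosome 4 stretch) were chosen after their values were seen. The members, the lists and the tests were chosen with earlier results of these data known. Positions on chromosome 18 are not reported here. Motifs and gene lists were planned and not run.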

Additional observations from a re-analysis of the deposited data

How the results depend on the processing

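Of 36 recomputed values, 30 stayed inside the interval of the value reported or, for counts, within 1.5 times of it. Many of the settings reuse most of the same peaks, so this tally is not an independent check. With only the wider part of the Flag list (above its median width), 718 peaks or 31.4% were Flag-only. Counting an HA peak within 10 kb as a partner lowered the share to 41.7%. The share of Flag-only peaks was 96% in the first 50 lines and 61.5% in the first 200. The median width of the leading Flag-only peaks was 670 bp in the first 50 lines. The cause of these shifts was not tested, except that 2 follow by construction. The wider part holds fewer peaks, and counting HA peaks within 10 kb as partners can only lower the share. Settings for the leading members' width and distance and for the neighbours of close members were chosen after seeing the data. The planned motif setting was not run. No paired analysis was possible because there is a single library for either antibody, and for the same reason no replicate could be left out. How much signal lies under the peak threshold cannot be bounded without read depth.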
